A study of Mus musculus with 18 samples.

Results

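Mir221 and Mir222 are neighbouring microRNA (miRNA) hairpin loci on mouse chromosome X whose main products share a seed, the stretch of bases 2 to 8 that pairs with target messages. They were found by the GENCODE M21 symbol of the Ensembl identifiers in the deposited files, which made them 2 of 2009 listed hairpin loci. Small RNA was sequenced from adipose stromal cells (ASC), mesenchymal cells grown from the fat of adult mice of strain NGL, and from the extracellular vesicles (EV) that they shed. The 18 libraries form 4 groups, which are EV of primed cells (primed EV, n = 5), EV of naive cells (naive EV, n = 5), primed ASC (n = 4) and naive ASC (n = 4). Primed cells had been treated with interferon gamma for 24 h, naive cells had not, and both were then cultured for 48 h in alpha MEM with 2% serum freed of EV. The design set EV against their parent cells, and EV of primed against EV of naive cells. RNA came from ASC by TRIzol and RNeasy but from EV by a SeraMir column, so the isolation method and the difference between EV and ASC cannot be told apart. The labels do not say that libraries of a group came from separate animals or cultures, so each p-value speaks of the spread among the sequenced libraries alone, which may be technical.

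In the cell, a hairpin is cut by Dicer into a short duplex, and the strand loaded into an Argonaute protein guides it to messages that pair with its seed. MiR-221 and miR-222 are processed from a common primary transcript and are best known from the vessel wall, where they are abundant in endothelial and smooth muscle cells. In human cells they repress CDKN1B, which encodes the cell cycle inhibitor p27, and KIT, the receptor for stem cell factor.

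In GRCm38, Mir221 (ENSMUSG00000065422) lies on the minus strand at chrX:19146294-19146388, a hairpin of 95 bases, and Mir222 (ENSMUSG00000065471) lies on the same strand at chrX:19146893-19146971, a hairpin of 79 bases. They are 504 bases apart, and no other gene of GENCODE M21 overlaps either of them. The nearest annotated gene is Gm14636 at chrX:19156981-19167241. The mature sequences from RefSeq (GRCm38.p6) are shown because the shared seed, in capitals, is what makes the pair 1 family, while the letters after it tell the reads of the 2 loci apart.
miR-221-3p: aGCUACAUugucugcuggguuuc
miR-222-3p: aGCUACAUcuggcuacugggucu
miR-221-5p: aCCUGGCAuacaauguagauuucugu
miR-1928: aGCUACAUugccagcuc
The 3p arms of Mir221 and Mir222 share their first 8 bases and are the same at 11 of 23 positions. The seed GCUACAU stands in 3 of 1738 mature mouse sequences of the RefSeq table, the third being miR-1928, whose locus on chromosome 1 had 0 counts in all 18 libraries. With a floor of 3 counts, those 0 counts stand for at most 3 of 17629699 counts. The 5p arm of Mir221 has another seed, CCUGGCA, which no other sequence of the table carries.

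The deposited counts are per hairpin, so reads of the 2 arms of a hairpin are summed in every value that follows, for Mir221 and Mir222 alike. RefSeq names both arms of Mir221, but for Mir222 only the arm shown above. Reads from the other side of the Mir222 hairpin would still be counted, and their part was not tested. The hairpins are shown for their differing make-up, with the mature sequences named above in capitals.
Mir221: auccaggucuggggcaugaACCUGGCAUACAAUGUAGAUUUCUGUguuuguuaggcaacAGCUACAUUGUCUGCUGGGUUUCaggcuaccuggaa
Mir222: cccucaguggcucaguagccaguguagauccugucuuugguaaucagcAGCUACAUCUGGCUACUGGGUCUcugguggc
Mir221 has a GC content of 47.4% and Mir222 one of 54.4%, and RNAfold gave minimum free energies of -42.8 and -40.7 kcal/mol.

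Both loci were counted in 18 of 18 libraries, with 32754 counts of Mir221 and 46141 of Mir222 in all. Libraries held between 180812 and 3052942 counts over the 2009 loci, and 245 loci passed the filter on low counts. Normalised counts are given in CPM, counts scaled to a fixed library total after TMM factors, a scaling that assumes most loci to be level between libraries. The factors lay between 0.678 and 1.08 in EV libraries and between 1.15 and 1.56 in ASC libraries, without overlap. Even with this scaling, 66.1% of the 245 loci passed between naive EV and naive ASC and 68.2% between primed EV and primed ASC. These shares are of edgeR's test at an adjusted p under 0.05, in either direction, so most loci were not level by it. Whether EV and ASC meet the assumption was not tested in any other way. Mesenchymal markers (9 of 9 in the files) took 58.8% to 62.0% of counts in primed EV, 55.7% to 59.1% in naive EV, 28.6% to 40.8% in primed ASC and 26.3% to 50.4% in naive ASC. These shares are sums over loci that did not move together. Mir143 was higher in EV than in ASC, at log2 fold changes of 2.32 in primed and 1.15 in naive cells. Mir145a, of the same list, was lower in EV, at -2.02 and -2.79. Haematopoietic markers (6 of 8 in the files) took 0.147% to 0.625% in primed EV, 0.361% to 1.49% in naive EV, 0.00916% to 0.0559% in primed ASC and 0.0128% to 0.0214% in naive ASC. Of the 2 endothelial markers Mir126a was in the files, and it took 0.198% to 0.496% in primed EV, 0.318% to 0.902% in naive EV, 0.00601% to 0.0592% in primed ASC and 0.0105% to 0.0288% in naive ASC. The part of these other cell types in the values of the pair was not tested. In the ASC libraries, which are bulk samples, fewer cells of a type and less RNA per cell cannot be told apart. EV libraries were made from vesicles rather than cells, and where their haematopoietic and endothelial markers came from was not tested. In any library, epithelial markers (6 of 6 in the files) took at most 0.287% of counts, striated muscle markers (4 of 5) at most 0.00318%, the liver marker Mir122 at most 0.00196% and neural markers (5 of 6) at most 0.000983%. Of the striated muscle list Mir133a-1 and Mir133a-2 were at 0 in all 4 groups, and the others in the files had counts in at least 1 group. Of the neural list Mir124a-1, Mir124a-3 and Mir9-2 were at 0 in all 4 groups, and in each group only 1 of the 5 had counts.

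Together the pair held 0.289% to 0.488% of counts in primed EV, 0.299% to 0.454% in naive EV, 0.488% to 0.846% in primed ASC and 0.416% to 0.744% in naive ASC. Per base of hairpin, Mir221 ranked between 37 and 62 among the 245 loci and Mir222 between 24 and 54, depending on the library. Mir222 was the higher of the 2 in 15 of 18 libraries by counts and in 17 of 18 per base of hairpin. Division by length favours Mir222, whose hairpin is the shorter. The exception per base was primed EV 2, where Mir221 stood 1.11 times as high per base and 1.34 times by counts.

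By TMM-scaled CPM, Mir221 was at its highest in EV and Mir222 in cells. Mir221 stood at 1739, 3179, 1909.5, 2462 and 1494 CPM in primed EV 1 to 5 and at 2188, 1703, 2236, 1776 and 1381 CPM in naive EV 1 to 5. It stood at 1325, 1150.3, 1070.4 and 1913 CPM in primed ASC 2 to 5 and at 1487, 1273, 1141 and 1384 CPM in naive ASC 1, 3, 4 and 5. Primed EV 2 was the highest library of all and primed ASC 4 the lowest, and primed ASC 5 stood apart from the other primed ASC libraries, among the EV values. The group means fell in the order primed EV (2157 ± 673 CPM, SD, n = 5), naive EV (1857 ± 357, n = 5), primed ASC (1365 ± 381, n = 4) and naive ASC (1321 ± 149, n = 4). Every group in this order overlapped the next. As a share of all counts, with no TMM factor, Mir221 was nearly level, at 0.165% ± 0.0668 in primed EV, 0.170% ± 0.0254 in naive EV, 0.167% ± 0.0371 in primed ASC and 0.171% ± 0.0342 in naive ASC.

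Mir222 ran in another order. It stood at 2312, 2374, 2373, 2777 and 2290.2 CPM in primed EV 1 to 5 and at 2748, 2495, 2039, 1709.9 and 1811 CPM in naive EV 1 to 5. It stood at 5562, 2827, 4589 and 3213 CPM in primed ASC 2 to 5 and at 2867, 2247, 2643 and 3394 CPM in naive ASC 1, 3, 4 and 5. Primed ASC 2 and 4 were the highest, above every other library, and naive EV 4 was the lowest. The group means fell in the order primed ASC (4048 ± 1261 CPM, SD, n = 4), naive ASC (2788 ± 479, n = 4), primed EV (2425 ± 200.01, n = 5) and naive EV (2161 ± 447, n = 5), again with each group overlapping the next. Its share of all counts was also higher in ASC than in EV on average, but with naive EV above primed EV, at 0.183% ± 0.0167 in primed EV, 0.202% ± 0.0548 in naive EV, 0.503% ± 0.170 in primed ASC and 0.365% ± 0.114 in naive ASC. The primed EV libraries were the closest together of any group, with a coefficient of variation of 8.25% for Mir222, although the same 5 libraries had 31.2% for Mir221.

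**Figure D1:**
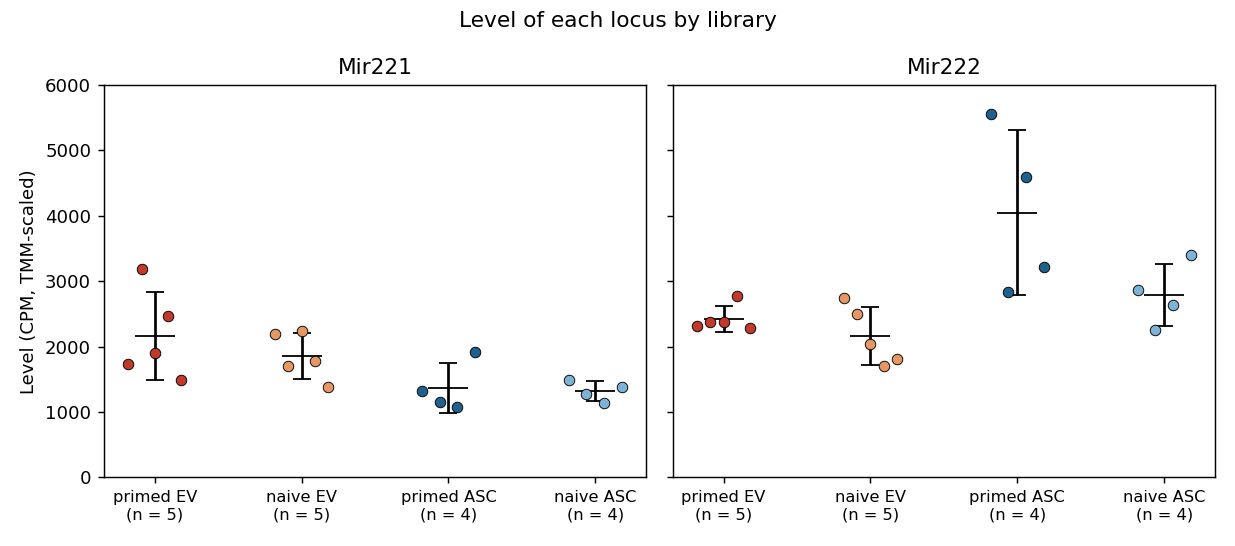
TMM-scaled CPM of Mir221 and Mir222 in each library, by group, with the mean and SD of each group. Mir221 averaged 2157 CPM in primed EV and 1365 CPM in primed ASC, while Mir222 averaged 2425 CPM in primed EV and 4048 CPM in primed ASC, with primed ASC 2 and 4 at the top.

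Under TMM scaling, though not with library totals alone, primed EV against primed ASC showed the pair moving in opposite directions. Mir221 rose in primed EV, 1.58-fold, with a log2 fold change of 0.66 (SE 0.23, 95% interval 0.18 to 1.14, n = 5 and 4; edgeR's quasi-likelihood test, Benjamini-Hochberg adjusted p = 0.0164). Mir222 fell to 0.599-fold, a log2 fold change of -0.74 (SE 0.20, 95% interval -1.16 to -0.32, n = 5 and 4; edgeR's quasi-likelihood test, Benjamini-Hochberg adjusted p = 0.00331). Both loci thus passed in a comparison in which 68.2% of all 245 tested loci passed in 1 direction or the other, so that a call was the common outcome. The Mir222 libraries did not overlap, the highest primed EV at 2777 CPM being below the lowest primed ASC at 2827 CPM, as was the case for 53.5% of loci. The Mir221 libraries did overlap, through primed ASC 5. The call for Mir221 was lost without any 1 of 6 libraries, at adjusted p = 0.0887 without primed EV 2, 0.0721, 0.108 and 0.132 without primed ASC 2, 3 and 4, and 0.0514 and 0.051 without naive ASC 1 and 3 (edgeR's quasi-likelihood test), with log2 fold changes between 0.41 and 0.61. With library totals alone as the scaling, the log2 fold change of Mir221 was -0.01 (edgeR adjusted p = 0.958) and that of Mir222 -1.46 (edgeR adjusted p = 2.36e-05), beside a median over all loci of -0.69, against 0.02 under TMM.

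Naive EV against naive ASC gave the same directions under TMM scaling, with log2 fold changes nearer 0, and neither locus passed. Mir221 had a log2 fold change of 0.49 (1.41-fold, SE 0.23, 95% interval 0.01 to 0.97, n = 5 and 4; edgeR's quasi-likelihood test, Benjamini-Hochberg adjusted p = 0.065). Mir222 had one of -0.37 (0.775-fold, SE 0.20, 95% interval -0.79 to 0.05, n = 5 and 4; edgeR's quasi-likelihood test, Benjamini-Hochberg adjusted p = 0.115). Across the 245 loci 66.1% passed in this comparison. The libraries overlapped for both members, while those of 58.4% of loci did not. Mir221 passed in 6 of 13 other ways of processing, at log2 fold changes of 0.50 to 0.68, and its log2 fold change was -0.0030 with library totals alone. There Mir222 passed, at -0.85 (edgeR adjusted p = 0.00376), beside a median over all loci of -0.70 (-0.24 under TMM).

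The balance within the pair separated EV from ASC without the need for a scaling between libraries. Mir221 made up 42.9%, 57.2%, 44.6%, 47.0% and 39.5% of the counts of the pair in primed EV 1 to 5, and 44.3%, 40.6%, 52.3%, 51.0% and 43.3% in naive EV 1 to 5. It made up 19.2%, 28.9%, 18.9% and 37.3% in primed ASC 2 to 5, and 34.1%, 36.2%, 30.1% and 29.0% in naive ASC 1, 3, 4 and 5. The lowest EV library, at 39.5%, lay above the highest ASC library, at 37.3%, and 3 of 10 EV libraries had more counts of Mir221 than of Mir222, against 0 of 8 ASC libraries. The Wilson 95% intervals reached 0.794 to 2.31 points to either side, which covers counting error only and is less than the spread between libraries. Those of primed EV 5 (37.3% to 41.7%), the lowest EV library, and primed ASC 5 (35.9% to 38.8%), the highest ASC library, overlapped. The gap between these libraries was thus not beyond counting error. Means were 46.2% ± 6.73 in primed EV, 46.3% ± 5.09 in naive EV, 26.1% ± 8.80 in primed ASC and 32.4% ± 3.37 in naive ASC (SD, n = 5, 5, 4 and 4).

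**Figure D2:**
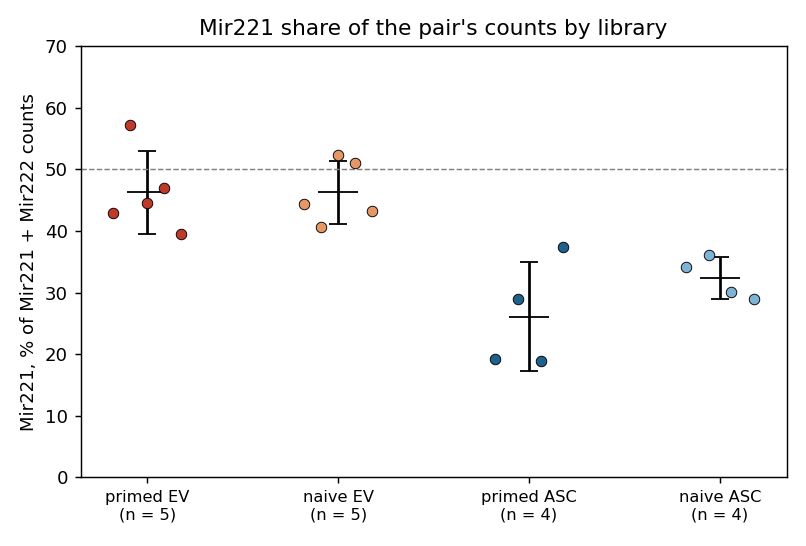
Mir221 as a percentage of the counts of both loci in each library, by group, with the mean and SD of each group; the dashed line marks equal counts. The 10 EV libraries lie between 39.5% and 57.2% and the 8 ASC libraries between 18.9% and 37.3%.

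The ratio was tested as log2 of Mir221 counts over Mir222 counts, each with 0.5 added, by exact two-sided permutation over the libraries. In primed EV the mean log2 ratio was -0.22 ± 0.39 and in primed ASC -1.55 ± 0.65 (SD, n = 5 and 4), a difference of 1.33, or 2.52-fold (exact permutation p = 0.0159, Benjamini-Hochberg adjusted p over 5 tests = 0.0397). In naive EV it was -0.22 ± 0.30 and in naive ASC -1.07 ± 0.22 (SD, n = 5 and 4), a difference of 0.85, or 1.80-fold (exact permutation p = 0.0159, adjusted p over 5 tests = 0.0397). The ratio was higher in every EV library than in any ASC library in both comparisons, and 0.0159 is the smallest p that 5 against 4 libraries can give. In the primed comparison this rests on the narrow gap between primed EV 5 and primed ASC 5 given above. These tests were chosen with the levels of both loci known from the same libraries, so they are not independent of the levels above. Leaving out any 1 library kept both differences, at 1.15 to 1.60 for primed and 0.76 to 0.94 for naive cells, with adjusted exact p between 0.0714 and 0.0893. Leaving out a library raises the smallest exact p that the EV against ASC comparison holding it can give. Through the adjustment over 5 tests this also raises the adjusted p of the other EV against ASC comparison. These adjusted values thus say nothing on whether the differences are stable.

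A difference in ratio was common among neighbouring loci. There were 74 pairs of adjacent tested loci on the same strand and at most 10 kb apart. Their ratio did not overlap between primed EV and primed ASC in 51.4%, and between naive EV and naive ASC in 54.1%. Many of these pairs lie in a cluster on chromosome 12, where successive pairs share a locus, so the pairs are not independent. By the size of the difference, Mir221 and Mir222 ranked 34 of 74 in primed and 45 of 74 in naive cells, with medians over the 74 pairs of 1.12 and 1.10 in log2. Mir143 and Mir145a, a cluster of smooth muscle and fibroblasts, differed far more, by 4.32 in primed and 4.04 in naive cells, with Mir143 relatively higher in EV. Mir296 and Mir298 differed by -1.83 in primed and -1.77 in naive cells. Mir191 and Mir425, which are not among the 74 because the files annotate them on opposite strands, differed by -1.38 in primed and -1.37 in naive cells. None of these 3 pairs overlapped between EV and ASC.

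**Figure D3:**
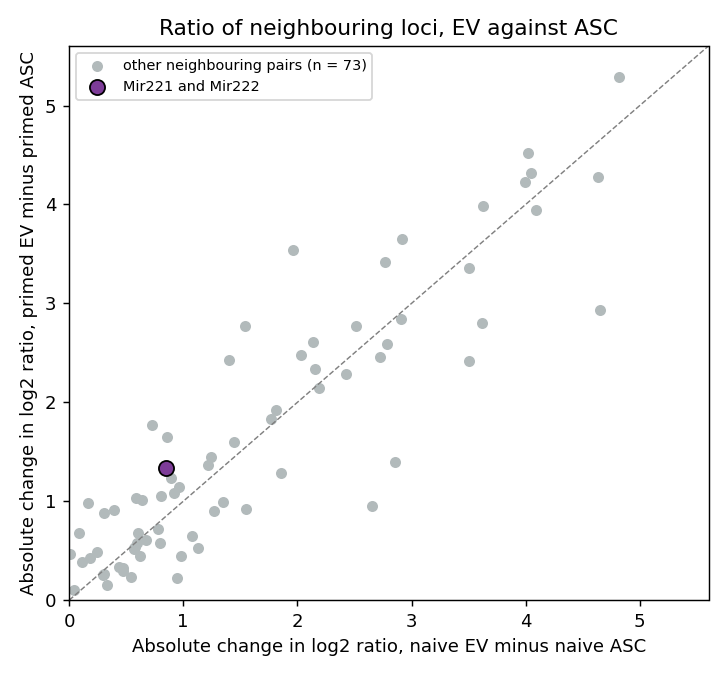
Absolute difference of the mean log2 ratio of 74 pairs of neighbouring loci, in primed EV minus primed ASC (vertical) against naive EV minus naive ASC (horizontal), with equality as the dashed line. Mir221 and Mir222 (marked) lie at 1.33 and 0.85, within the range of the other 73 pairs.

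Priming left both loci without a call in EV. For primed EV against naive EV, Mir221 had a log2 fold change of 0.22 (1.16-fold, SE 0.21, 95% interval -0.23 to 0.66, n = 5 each; edgeR's quasi-likelihood test, Benjamini-Hochberg adjusted p = 0.727). Mir222 had one of 0.17 (1.12-fold, SE 0.19, 95% interval -0.23 to 0.57, n = 5 each; edgeR's quasi-likelihood test, Benjamini-Hochberg adjusted p = 0.809). Of all loci 0.816% passed. The libraries overlapped for both members, while those of 2.45% of loci did not. The mean log2 ratio was -0.22 in primed EV and -0.22 in naive EV, a difference of -0.0020 (exact permutation p = 0.992). Groups overlapped, as in all but 1.35% of the 74 neighbouring pairs.

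In the cells, Mir222 had the larger difference with priming of the pair, which did not pass. In primed ASC against naive ASC its log2 fold change was 0.54 (SE 0.21, 95% interval 0.09 to 0.99, n = 4 each; edgeR's quasi-likelihood test, adjusted p = 0.126). Before adjustment over the 245 loci, edgeR's p lay under 0.05. Primed ASC 2 and 4 lay above every naive ASC library, while primed ASC 3 and 5 lay among them. DESeq2 gave 0.68 (adjusted p = 0.0251), which passes. Mir221 had a log2 fold change of 0.05 (1.03-fold, SE 0.24, 95% interval -0.45 to 0.55, n = 4 each; edgeR's quasi-likelihood test, Benjamini-Hochberg adjusted p = 0.914). Of all loci 10.2% passed in this comparison. The libraries of 11.4% of loci did not overlap between these groups, but those of both members did. The mean log2 ratio was -1.55 in primed ASC and -1.07 in naive ASC, a difference of -0.48 (exact permutation p = 0.257, adjusted p over 5 tests = 0.336), where the smallest p that 4 against 4 libraries can give is 0.0286. Here too the groups overlapped, as in all but 8.11% of neighbouring pairs.

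The difference between priming in EV and priming in ASC, tested as an interaction, did not pass for either locus. It was 0.17 in log2 for Mir221 (SE 0.32, 95% interval -0.50 to 0.84; adjusted p = 0.878 by edgeR's quasi-likelihood test) and -0.37 for Mir222 (SE 0.29, 95% interval -0.97 to 0.23; adjusted p = 0.577 by edgeR). For the log2 ratio it was 0.48 (exact permutation p = 0.268, adjusted p over 5 tests = 0.336). By edgeR 0% of loci passed, with 26 at an unadjusted p under 0.05, while DESeq2 called 3 loci and limma's voom 0.

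**Figure D4:**
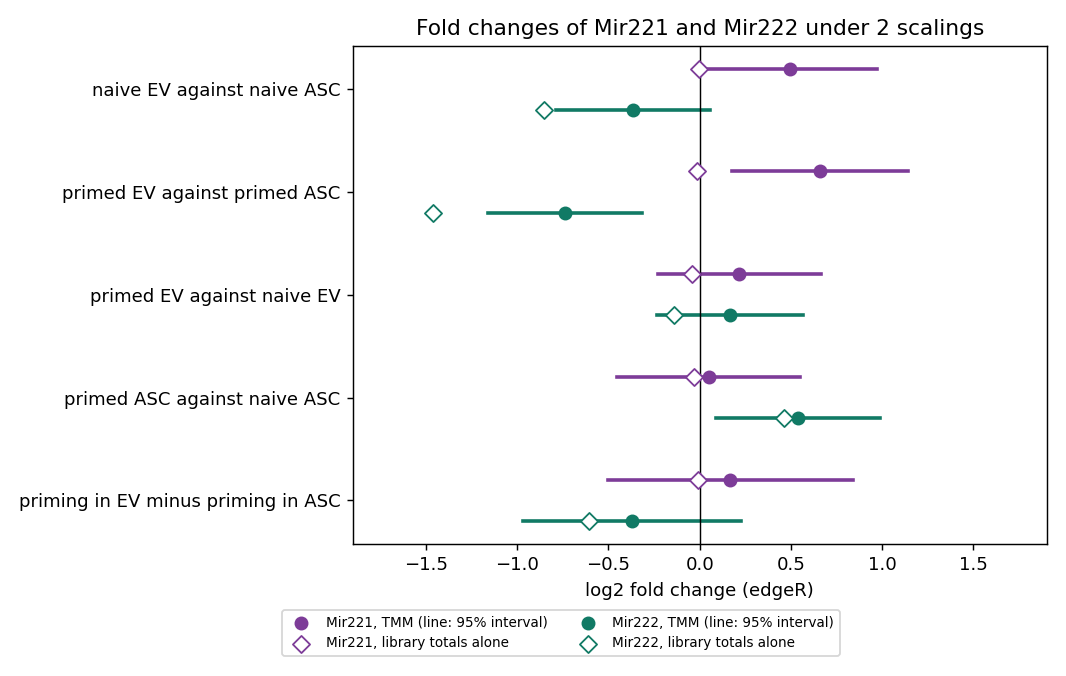
Log2 fold changes of Mir221 and Mir222 from edgeR in the 5 comparisons, with TMM scaling (circles, lines for 95% intervals) and with library totals alone (diamonds). In primed EV against primed ASC, Mir221 at 0.66 and Mir222 at -0.74 lie on opposite sides of 0 under TMM scaling (-0.01 and -1.46 with library totals alone), and under TMM neither locus passed in the other comparisons.

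Within EV and within ASC libraries, the loci showed no relation that passed a test. Values were centred on their group means, since EV and ASC libraries form separate clusters. Over 10 EV libraries r was 0.385 (permutation p = 0.275, adjusted over 2 relations 0.549) and rho 0.515 (permutation p = 0.133, adjusted 0.267). Without primed EV 2 and 5, the libraries farthest from the median of Mir221, r was 0.545. Over 8 ASC libraries r was -0.107 (exact permutation p = 0.821, adjusted 0.821) and rho 0.167 (exact permutation p = 0.703, adjusted 0.703). Without primed ASC 5 and 4, r was 0.556, so the sign of r rested on these libraries.

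**Figure D5:**
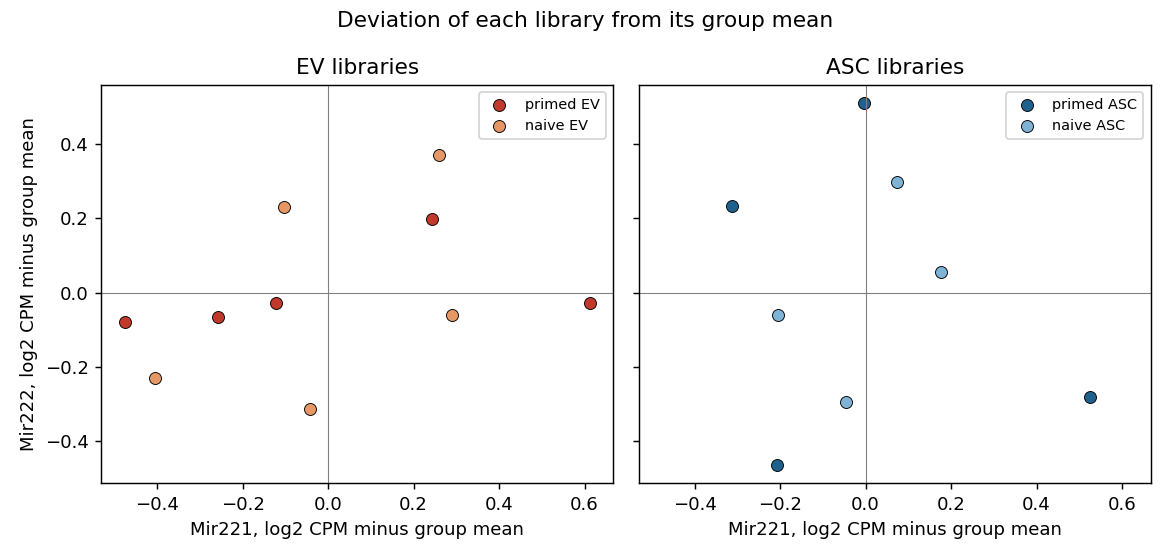
Deviation of Mir222 against that of Mir221 from the group mean in log2 CPM, for 10 EV and 8 ASC libraries. Pearson's r is 0.385 over EV and -0.107 over ASC libraries, and neither passes a permutation test.

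Neither locus was the other's nearest match over the 18 libraries. Likeness was measured among the 245 tested loci as the root mean square difference of log2 CPM, each locus centred on its mean. The loci most like Mir221 were Mir130a (0.280), Mir29a (0.349), Mirlet7a-2 (0.352), Mir34a (0.368) and Mir377 (0.391). Mir222 was at 0.673 from Mir221, with 64 loci nearer to it, beside a median of 0.938 over all. The loci most like Mir222 were Mir668 (0.29985), Mirlet7d (0.315), Mir543 (0.347), Mir484 (0.359) and Mir676 (0.385), and 76 loci were nearer to Mir222 than Mir221 was.

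Other miRNAs known to act on growth set these values in context. Of the growth-linked list, loci reported to promote division, 11 of 12 were tested. Between primed EV and primed ASC 6 rose and 2 fell in EV (median log2 fold change 0.87, against 0.02 over all loci), and in naive EV against naive ASC 6 rose and 0 fell (0.79 against -0.24). Over all 245 loci 68.2% passed in the primed and 66.1% in the naive comparison, so that 8 of 11 stood near that share, and 6 of 11 below it. Mir21a, abundant in growing and injured cells, led it with log2 fold changes of 3.58 (SE 0.22) in primed and 3.07 (SE 0.22) in naive EV against ASC. Mir92-1, of a cluster that promotes growth of B cell lymphoma in mice, fell in primed EV, at -0.61 (SE 0.24, edgeR adjusted p = 0.0323), and stood at -0.26 in naive EV. Mir155, an immune cell miRNA, stood at -0.05 and -0.46 and passed in neither, nor did Mir31, at 0.11 and 0.36.

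Of the growth-restraining list 15 of 16 were tested. Between primed EV and primed ASC 6 rose and 5 fell in EV (median 0.10), and in naive EV against naive ASC 4 rose and 5 fell (median -0.09), where 68.2% and 66.1% of all loci passed. Mir34c, whose transcription is raised by p53, rose by 1.42 (SE 0.21) in primed and 1.58 (SE 0.21) in naive EV. Mir145a, which marks contractile smooth muscle, had log2 fold changes of -2.02 (SE 0.23) in primed and -2.79 (SE 0.23) in naive EV, and Mirlet7b, of the let-7 family that restrains growth, had -0.66 (SE 0.16) and -1.04 (SE 0.16), all 4 of which passed. Mirlet7c-1, of the same family, rose in primed EV at 0.52 (SE 0.17) and stood at -0.09 in naive EV.

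For the vessel wall, where the pair is best known, 15 of 18 listed loci were tested. For primed EV against primed ASC 7 rose and 5 fell (median 0.59), and in naive EV against naive ASC 7 rose and 4 fell (median 0.11), beside medians of 0.02 and -0.24 over all loci, of which 68.2% and 66.1% passed. Of 13 tested of 14 loci linked to inflammation and interferon, 3 rose and 4 fell in primed EV against primed ASC, and 3 rose and 5 fell in naive EV against naive ASC, neither of them above the same shares. With priming, 1 of these rose in EV, Mir147, at a log2 fold change of 3.15 (SE 0.49, edgeR adjusted p = 0.000827), where 0.816% of all loci passed. In primed ASC 4 rose (median 0.33, against -0.12 over all loci, of which 10.2% passed), which were Mir125a, at 0.82 (SE 0.18), Mir125b-1, at 0.68 (SE 0.16), Mir125b-2, at 0.98 (SE 0.18), and Mir147. The main mature product of Mir125b-1 and Mir125b-2 is the same, so the split of its reads between them is uncertain. The same limit may apply to Mirlet7a-2, Mirlet7c-1 and Mir92-1 above, whose names mark numbered copies. The miR-125 family is known to act in macrophages and lymphoid cells. With priming 0 growth-linked loci passed in EV and 0 in ASC. In primed ASC the growth-restraining Mir34b rose, at 0.86 (SE 0.25), and the vessel wall locus Mir143 fell, at -0.89 (SE 0.23). The names Mir147, Mir125b-2, Mir34b and Mir143 were chosen here after their values were seen. Of 119 other loci on chromosome X, 20 were tested. Set against primed ASC, in primed EV 10 of them rose and 6 fell, and in naive EV against naive ASC 8 rose and 6 fell, where 68.2% and 66.1% of all loci passed. With priming, 2 of these 20 fell in ASC, where 10.2% of all loci passed. They were Mir351, at -1.07 (SE 0.23, edgeR adjusted p = 0.00762), and Mir98, at -0.83 (SE 0.26, edgeR adjusted p = 0.0479).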

How the data were processed

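The members, lists and tests were chosen with earlier results of these data known. The deposited values are raw counts per miRNA hairpin, with no normalisation. The headers name featureCounts 1.5.3, run without regard to strand on the miRNA genes of Ensembl 76. Per the submitters' processing notes, bcl2fastq, STAR 2.0.4, Subread and featureCounts 1.45 were used with GRCm38, so the versions of featureCounts differ. The headers name no option for reads that map to several places. Trimming and alignment settings were not given in the sources used here. The molecule label reads EV for ASC libraries too; groups follow the other labels.

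Identifiers of 1899 of 2009 loci matched GENCODE M21 (1820 with the same coordinates), the others held 5 counts, and 6 loci took a RefSeq name. Loci were filtered with filterByExpr over the 4 groups, which kept 245 loci with 99.957% of counts. With TMM scaling, all 18 libraries entered 1 model in edgeR 4.0.16 (R 4.3.3) tested by quasi-likelihood in 5 comparisons, with Benjamini-Hochberg adjustment over the 245 loci and a threshold of 0.05. Each SE was taken from the size of the log2 fold change divided by the root of the test's F. Permutation tests used scipy 1.17.1, alternatives DESeq2 1.42.0 and limma 3.58.1, and folding RNAfold 2.7.2. Scripts were tested on simulated data. Depth was 180812 to 3052942 counts per library, without molecular identifiers. Wilson intervals and the floor cover counting error only, while the intervals from edgeR include the spread between libraries.

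Named beside the pair are the 5 loci most like each member, loci sharing a seed, 3 neighbouring pairs and up to 4 of the most abundant members of a list. The list of chromosome X loci was added after the others. Alternatives were other scalings, filters, tools, thinning to the shallowest library, replicate blocks and leaving out each library.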

Additional observations from a re-analysis of the deposited data

Results flagged for a closer look

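Mir222 in primed EV 4 stood at 2777 CPM, apart from the other 4 primed EV libraries, which lay between 2290.2 and 2374 CPM. Its distance from the nearest of them was 0.827 of the range of the group, above Dixon's critical value of 0.71 for 5 libraries. The same check was made in all 4 groups, for the CPM of both loci and for the share of Mir221 in the pair, and marked no other library. Chance alone marks about 1 in 20 groups in this way for each quantity checked. Without primed EV 4, the log2 fold change of Mir222 in primed EV against primed ASC stayed past the threshold.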

How the results depend on the processing

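Mir222 in primed EV against primed ASC was lower and past the threshold in all 13 alternatives (log2 fold change -1.46 to -0.63) and without any 1 of 18 libraries (-0.93 to -0.57). The values below are log2 fold changes unless said otherwise, and the cause of each change was not tested. Mir221 in primed EV against primed ASC lost its call with TMMwsp scaling (0.58), upper quartile scaling (0.54) and thinned counts (0.51), and was -0.014 with library totals alone. In naive EV against naive ASC, Mir221 passed with relative log expression factors (0.60), TMMwsp (0.68), TMM without the 5 most abundant loci (0.61), DESeq2 (0.60), only the groups compared (0.50) and thinned counts (0.57), and was -0.0030 with library totals alone. Mir222 passed there with library totals alone (-0.85) and with a replicate block by title number (-0.43). In primed EV against naive EV, library totals alone gave -0.042 for Mir221 and -0.14 for Mir222, and thinned counts -0.029 for Mir222. In primed ASC against naive ASC, Mir221 was -0.030 with library totals alone, and Mir222 passed with DESeq2 (0.68). The interaction of Mir221 was -0.021 with relative log expression factors, -0.097 with TMMwsp, -0.011 with library totals alone, -0.022 with DESeq2 and -0.064 with thinned counts.

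The 2 loci called in primed EV against naive EV became 1 with TMMwsp, upper quartile, library totals alone, TMM without the 5 most abundant loci and a minimum of 10 CPM in 1 group, 8 with no filter, 5 with DESeq2, 0 with thinned counts (189 loci tested) and 7 with a replicate block by title number. The 25 called in primed ASC against naive ASC became 40 with DESeq2 and 15 with only the groups compared. The 0 interaction calls became 3 with no filter and 3 with DESeq2.

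The difference in log2 ratio lost its call with thinned counts (0.81 in naive and 1.32 in primed cells) and with a replicate block by source name number (0.94 and 1.38; exact p = 0.125, the smallest that 4 pairs can give). Between primed EV and naive EV it was 0.0067 with thinned counts and 0.31 with summed counts. The correlation within ASC libraries was 0.218 with library totals alone. Libraries are numbered here by source name, while by title primed EV 1 carries the same number as naive EV 5 and primed ASC 5. By source name, libraries of the same number had deviations with r of 0.129 to 0.525 for numbers 1 to 4 and of -0.160 to 0.0755 for number 5. The labels give the numbers no meaning and not every r exceeded 0.1, so no replicate block was used outside these alternatives, though a shared source of numbers 1 to 4 was not tested. For libraries that share no number, r was not computed, so these values have nothing to be judged against.

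Without 1 library each, the ranges were as follows. In naive EV against naive ASC, Mir221 lay between 0.39 and 0.63, Mir222 between -0.49 and -0.13, the ratio between 0.76 and 0.94, and 147 to 164 loci passed. Mir221 passed there without naive ASC 5, naive EV 5, primed ASC 4, primed ASC 5 or primed EV 2. For primed EV against primed ASC, Mir221 lay between 0.41 and 0.87, the ratio between 1.15 and 1.60, and 154 to 168 loci passed. For primed EV against naive EV, Mir221 lay between 0.05 and 0.41, Mir222 between 0.05 and 0.35, the ratio between -0.16 and 0.10, and 1 to 8 loci passed (8 without primed EV 2). In primed ASC against naive ASC, Mir221 lay between -0.15 and 0.27, Mir222 between 0.35 and 0.71, the ratio between -0.75 and -0.30, and 6 to 33 loci passed (6 without naive ASC 3 or 4, 33 without primed ASC 5). The interaction lay between -0.13 and 0.30 for Mir221, -0.67 and -0.27 for Mir222 and 0.30 and 0.75 for the ratio, with 0 to 1 calls. The correlation lay between 0.25 and 0.56 within EV and between -0.42 and 0.43 within ASC libraries.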
